A study of Mus musculus with 12 samples.

Results

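The miR-192, miR-194 and miR-215 miRNAs of the mouse were followed over 12 small RNA libraries made from sorted cells of the embryo, 3 for each of 4 stages. They were taken as every row of the deposited count table whose name is that of a miR-192, miR-194 or miR-215 mature arm or precursor. That gave 7 of the 1053 miRNA entries, of which 4 are mature arms (mmu-miR-194-5p, mmu-miR-192-5p, mmu-miR-194-2-3p and mmu-miR-215-5p) and 3 are precursors (mmu-mir-192, mmu-mir-194-1 and mmu-mir-194-2).

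The study profiled miRNAs on the way from endoderm to pancreatic progenitors. At embryonic day (E) 8.5 the cells were Foxa2-CreER endoderm of whole embryos, in which a tamoxifen-inducible Cre knocked into the Foxa2 locus (Foxa2mcm) was activated by tamoxifen at E6.5. From E9.5 to E11.5 (E9.5, E10.5, E11.5) they were Pdx1-Cre cells of the trunk, in which a transgene expresses Cre in the pancreatic and duodenal domain. In all groups Cre had switched on tdTomato, a red fluorescent protein, by which the cells were sorted. The Cre driver and the dissected region changed with the stage between E8.5 and E9.5, and the number in the library names was shared within a stage and differed between stages, so driver, batch and stage cannot be told apart there, nor batch and stage elsewhere. The males of the lineage-tracing crosses carried 1 mir-302 allele replaced by eGFP, and the mir-302 genotype of the sorted embryos is not given in the sources used here. Nothing states that the replicates came from separate litters, so p-values measure the spread between these libraries.

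A miRNA is cut from a hairpin, the precursor, into a 5-prime (5p) and a 3-prime (3p) arm, and the bases 2 to 8 of the mature arm, the seed, pair with target mRNAs. In adult mammals miR-192, miR-194 and miR-215 are abundant in the epithelium of the gut, in liver and in kidney, where hepatocyte nuclear factors drive their transcription. They are also known as miRNAs that respond to p53. Each of the paired hairpins is transcribed together with its neighbour.

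The mature arms with an entry in the table are shown because their seeds decide which of them can act on the same targets. They were taken from RefSeq (GRCm38.p6), are written 5′ to 3′, and have the seed in capitals.
mmu-miR-192-5p: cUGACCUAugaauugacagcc
mmu-miR-215-5p: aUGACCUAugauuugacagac
mmu-miR-194-5p: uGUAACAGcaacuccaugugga
mmu-miR-194-2-3p: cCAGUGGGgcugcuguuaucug

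miR-192-5p and miR-215-5p shared the seed UGACCUA, and they were the 2 mature names with it among 1679 in RefSeq. Over their 21 bases they differed by 3 substitutions, C1A, A12U and C20A, counted from the 5′ end with the base of miR-192-5p first, all outside the seed. The seed of miR-194-5p, GUAACAG, belonged to no other name, while CAGUGGG of miR-194-2-3p was shared with 2 further names, so 3 held it.

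The hairpins lie in 2 pairs. Mir194-2 (chr19:6264643-6264728, plus strand) and Mir192 (chr19:6264844-6264932, plus strand) were 115 bases apart and lay between genes, 2307 bases after the end of Atg2a. Mir194-1 (chr1:185313319-185313385, plus strand) and Mir215 (chr1:185313581-185313692, plus strand) were 195 bases apart, inside an intron of Iars2, which is read from the opposite strand. Mir194-1 was also in an intron, and Mir215 in an exon, of the antisense gene 2010103J01Rik (GENCODE M21). The mature sequence of miR-194-5p is the same from both hairpins, so its counts cannot be assigned to a chromosome. The other arm can be told apart, since miR-194-2-3p differed from miR-194-1-3p by A8G, C19U, U20C and C22G (the base of miR-194-1-3p first).

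The libraries held 53996 to 1103383 counts, and the 3 E9.5 libraries were the smallest. A count of 3 corresponded at E8.5 to 4.36 to 7.80 CPM (counts scaled to a library total of fixed size, with TMM factors). In the E9.5 libraries it corresponded to 32.2 to 76.3 CPM, in those of E10.5 to 11.49 to 25.9 CPM, and in those of E11.5 to 2.76 to 6.88 CPM. A value at or under 3 counts is treated below as not distinguishable from 0. In each library the counts of all entries also piled up at a second level above single counts, between 30.3 and 124 reads, and members are given as multiples of it where that bears on a value. The miR-122-5p marker of hepatic cells rose from 465 to 597 CPM in the E8.5 libraries to between 38996 and 131533 CPM at the 3 later stages, and miR-375-3p and miR-7a-5p, the pancreatic markers, were present in every library. These levels cannot tell fewer cells of a type from less RNA per cell.

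All 7 entries together held 4386 counts. miR-194-5p led with 2469 counts, rank 179 of the 1053 entries by total, and mir-192 followed with 1361, rank 242. Both were detected in 12 of 12 libraries. miR-192-5p held 274 counts in 6 libraries, miR-194-2-3p 115 in 3, miR-215-5p 85 in 3, mir-194-2 81 in 6 and mir-194-1 1 in 1. Of the 7 entries, 4 passed the filter on low counts (miR-194-5p, mir-192, miR-192-5p and mir-194-2), and they entered 24 comparisons over the 6 pairs of stages. In those, 1 call was made.

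**Figure D1:**
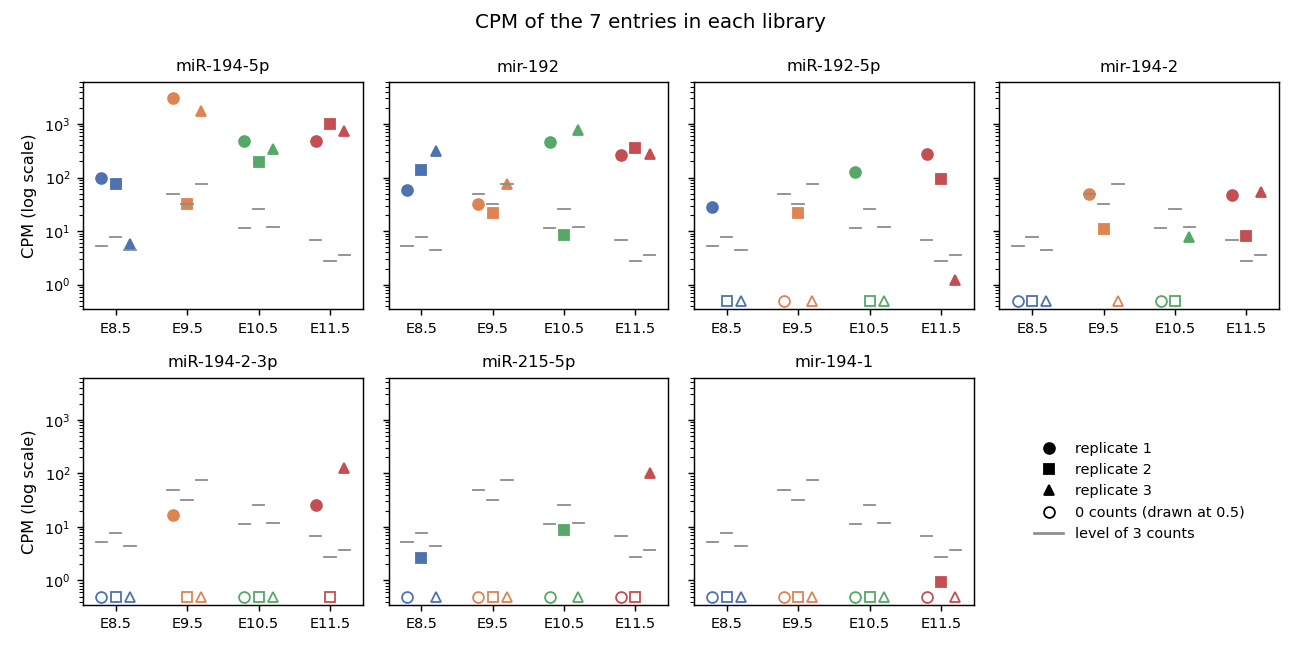
CPM (log scale) of each of the 7 entries in each of the 12 libraries by stage, with a symbol for each replicate, open symbols for 0 counts (drawn at 0.5) and grey bars at the level of 3 counts in that library. miR-194-5p lay at 474.7 CPM or above in the 3 E11.5 libraries and at 97.4 CPM or below in the 3 E8.5 libraries, while miR-194-2-3p, miR-215-5p and mir-194-1 were at 0 in most libraries.

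miR-194-5p, the mature arm made by both loci, was higher in Pdx1-Cre cells of E9.5 than in E8.5 endoderm by the test, with overlapping libraries, and its E10.5 and E11.5 differences from E8.5 did not pass. It had 56, 29 and 4 counts in E8.5 replicates 1 to 3, which is 97.4, 75.4 and 5.82 CPM. At E9.5 it had 184, 3 and 68 counts, or 3006, 32.2 and 1730 CPM. At E10.5 it had 127, 23 and 86 counts, or 486, 199 and 337 CPM. At E11.5 it had 207, 1076 and 606 counts, or 475, 990 and 733 CPM. The 2 high values of E9.5 were the highest of all 12 libraries, but E9.5 replicate 2 lay within the E8.5 range, although it was the deepest of the E9.5 libraries with 80075 counts.

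Between E8.5 and E9.5, where 32 of 571 tested entries (5.6%) were called, miR-194-5p was the 1 member called of 4. It rose from 59.5 ± 47.8 to 1589 ± 1492 CPM (mean ± SD, n = 3 libraries), a log2 fold change of 4.73 (SE 1.34, 95% interval 1.95 to 7.52) with adjusted p = 0.0361 by the edgeR quasi-likelihood test with Benjamini-Hochberg adjustment. The groups overlapped. The median log2 change of all tested entries was -0.84, and with RLE size factors it moved by 0.64 to -0.21, where miR-194-5p rose by 5.43. The call ended with library size alone (4.45, adjusted p = 0.0521, edgeR), with limma voom (3.73, 0.219) and in 4 further alternatives of 11 with all libraries kept. The call was lost when any single E8.5 library was left out (adjusted p = 0.0657 without replicate 1, 0.1198 without replicate 2 and 0.195 without replicate 3, edgeR), and also without E9.5 replicate 1 (0.0858). Without E9.5 replicate 2, the low library, the change was 5.55 (adjusted p = 0.00115). miR-223-3p, a marker of myeloid cells that did not pass the filter and was singled out after its values were seen, had 103, 0 and 105 counts in E9.5 replicates 1 to 3 and at most 1 count in each other library, so it was high in the 2 libraries where miR-194-5p was high. The other leukocyte markers with a row were not high there. In E9.5 replicates 1 to 3 miR-155-5p had 2, 0 and 1 counts and miR-142a-5p had 0, 1 and 0. The part of miR-223-3p in the result was not tested.

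The E11.5 libraries were all above the E8.5 libraries for miR-194-5p, in a comparison where 66 entries (11.6%) were called. The log2 difference was 3.62 (SE 1.27, 95% interval 0.98 to 6.26), which did not pass the test (adjusted p = 0.0644, edgeR). It passed without E9.5 replicate 1 (adjusted p = 0.0489), E9.5 replicate 2 (0.0161) or E9.5 replicate 3 (0.0488), libraries that enter only through the shared estimate of the spread, the scaling and the filter. The E10.5 libraries were also all above those of E8.5, with a log2 difference of 2.52 (SE 1.22, adjusted p = 0.186, edgeR), and 49 entries (8.58%) were called there. None of the 4 tested members was called in either comparison by edgeR. At an unadjusted p under 0.05 there were 2 members at E11.5 against E8.5 and 0 at E10.5 against E8.5. DESeq2 called 1 of them at E11.5 against E8.5 and limma voom called 2.

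By mean CPM, miR-194-5p was highest at E9.5 (1589), followed by E11.5 (733 ± 258), E10.5 (341 ± 144) and E8.5 (59.5). No neighbours in that order were shown to differ. The log2 difference of E11.5 from E9.5 was -1.11 (adjusted p = 0.556) and that of E11.5 from E10.5 was 1.10 (0.852), beside that of E10.5 from E8.5 given above. The log2 difference of E10.5 from E9.5 was -2.22 (SE 1.20, adjusted p = 0.314, edgeR). The share of all tested entries called was 4.38% for E10.5 against E9.5, 0.35% for E11.5 against E10.5 and 4.55% for E11.5 against E9.5. No member was called in any of these by edgeR, DESeq2 or limma voom. For miR-192-5p and mir-194-2, however, DESeq2 gave no adjusted p in the comparisons with E9.5. At an unadjusted p under 0.05 there was 1 member at E10.5 against E9.5 (mir-192) and 0 in the others.

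The E11.5 value of miR-194-5p was also the best founded in reads. Relative to the second count level of its library it stood at 6.82, 8.71 and 7.27 in the 3 E11.5 libraries. At the earlier stages it never exceeded 2.24 levels, and in E8.5 replicate 3 and E9.5 replicate 2 it was at 0.0838 and 0.0515.

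**Figure D2:**
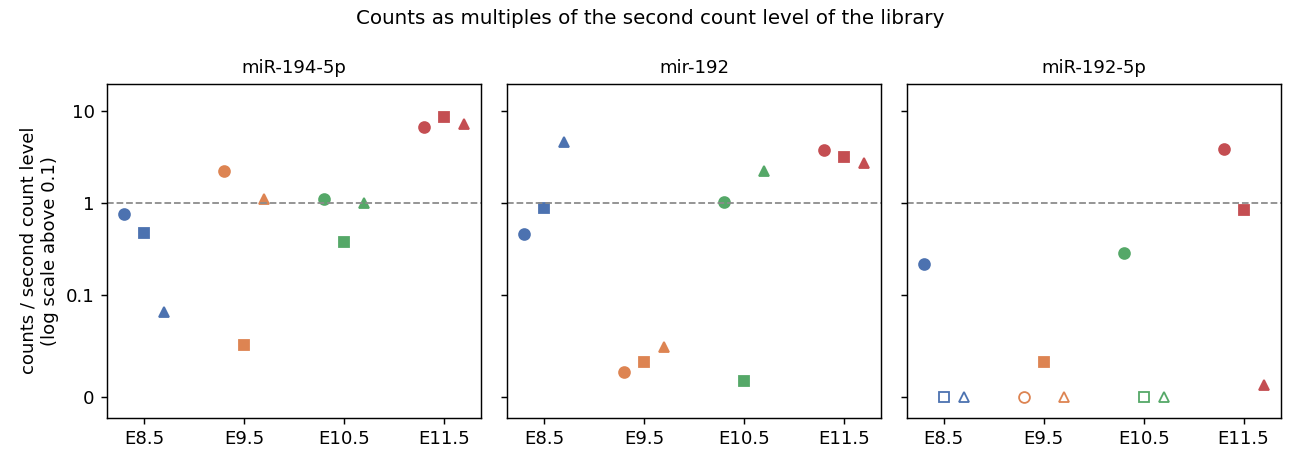
Counts of miR-194-5p, mir-192 and miR-192-5p in each library divided by the second count level of that library (log scale above 0.1, linear below; circle, square and triangle for replicates 1 to 3, open for 0 counts, dashed line at 1 level). The 3 E11.5 libraries had miR-194-5p at 6.82 to 8.71 levels, and the E9.5 libraries had mir-192 at 0.0488 levels or less.

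mir-192, the precursor entry of its hairpin on chromosome 19, was not called in any comparison. It had 34, 54 and 219 counts at E8.5, or 59.1, 140.3 and 319 CPM. At E9.5 it had 2, 2 and 3 counts, or 32.7, 21.5 and 76.3 CPM, which was at or under the level of 3 counts in all libraries of that stage. At E10.5 it stood at 456, 8.64 and 760.4 CPM, the low value being 1 count. At E11.5 it had 116, 391 and 226 counts, or 266, 360 and 273 CPM. In counts the E9.5 libraries were the low ones together with E10.5 replicate 2. In CPM they overlapped those of E8.5, and E10.5 held both the highest and the lowest CPM of the 12 libraries.

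None of the 6 comparisons of mir-192 passed the edgeR test, 1 had an unadjusted p under 0.05, and DESeq2 and limma voom also called 0. The nominal differences with E9.5 were the furthest from 0. E9.5 differed from E8.5 by a log2 value of -2.04 (SE 1.52, 95% interval -5.18 to 1.11, adjusted p = 0.426). E10.5 was higher than E9.5 by 3.28 (SE 1.58, 0.01 to 6.55, adjusted p = 0.273) and E11.5 was higher by 2.83 (SE 1.55, -0.38 to 6.05, adjusted p = 0.347), the last without overlap of the libraries. All E9.5 values were at or under 3 counts, so the sizes depend on how low counts are treated, and with counts under 10 set to 0 the E9.5 libraries are all at 0 and the 3 comparisons had adjusted p = 0.111 to 0.124 (edgeR). By mean CPM the order was E10.5 (408 ± 378), E11.5 (299.7 ± 52.1), E8.5 (173 ± 133) and E9.5 (43.5 ± 29.0). The differences between neighbours were -0.45 for E11.5 against E10.5 (adjusted p = 0.960) and 0.79 for E11.5 against E8.5 (0.879). Relative to the mean, the libraries of E11.5 lay closest together.

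**Figure D3:**
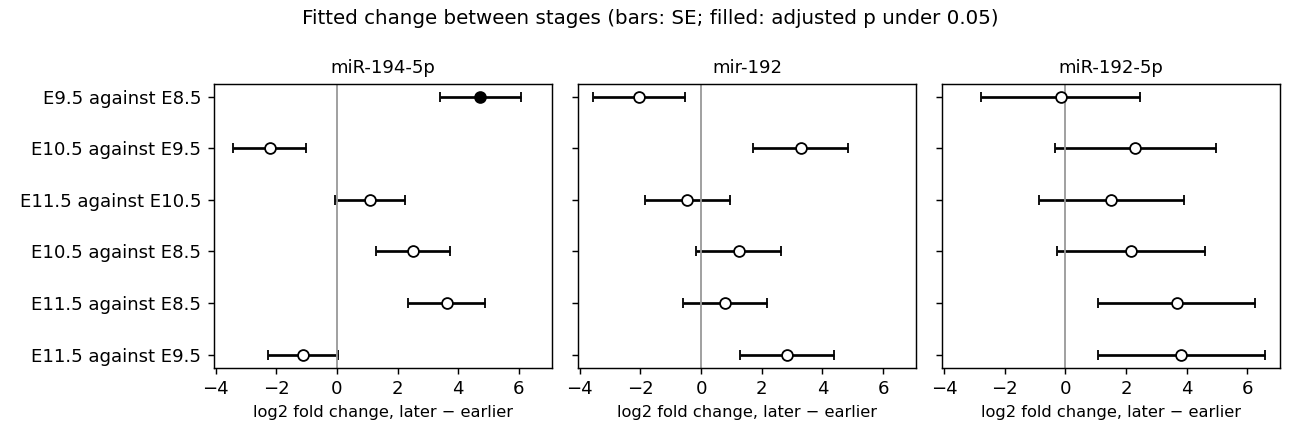
Fitted log2 fold changes (later minus earlier stage) of miR-194-5p, mir-192 and miR-192-5p in the 6 stage comparisons, with SE bars and a filled point where the adjusted p was under 0.05. The filled point is miR-194-5p at E9.5 against E8.5 (4.73), and mir-192 lay at -2.04 in the same comparison.

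miR-192-5p, the mature arm of that hairpin, was detected in 6 of the 12 libraries, against 12 for the precursor entry. It had 16, 0 and 0 counts in the E8.5 libraries (27.8 CPM in the first), and 0, 2 and 0 in those of E9.5 (21.5 CPM in the second). The E10.5 libraries held 33, 0 and 0 counts (126 CPM in the first). The E11.5 libraries held 118, 104 and 1 counts, or 271, 95.7 and 1.21 CPM. It exceeded 3 counts in 1 library of E8.5, 1 of E10.5 and 2 of E11.5, so every stage overlapped the next. The E8.5 mean was 9.28 ± 16.1 CPM and the E11.5 mean 122 ± 137 CPM, a log2 difference of 3.67 (SE 2.59, 95% interval -1.70 to 9.04, adjusted p = 0.523, edgeR), which ranged from 2.49 to 8.58 when 1 library was left out. None of its 6 comparisons passed by edgeR or limma voom, and 0 had an unadjusted p under 0.05. DESeq2 called none either, but it gave no adjusted p for the comparisons of miR-192-5p with E9.5. The arm and the precursor entry were about equal in E11.5 replicate 1 (118 and 116 counts). In E8.5 replicate 3 the precursor entry held 219 counts and the arm 0, and the arm was also at 0 in E10.5 replicate 3, the library with the highest CPM of the precursor entry.

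Over the 12 libraries the precursor entry held 83.2% of the counts of mir-192 and its arm together (1361 against 274). This was the highest of 189 hairpins with 2 arms in RefSeq and at least 300 counts in all, whose median was 5.49%. Of those hairpins 10 were over 50%, and 67 had a row for 1 arm and 122 for both, mir-192 being among the 67. The counts are summed over libraries of unequal depth, and by library the share ran from 49.6% in E11.5 replicate 1 to 100% in 6 libraries. mir-194-2, its neighbour on the same strand, ranked 129 with 3.04%, all miR-194-5p counts being taken as its arm. The 3p arm of miR-192 had no row in the table, and the table does not give which bases of the hairpin the reads covered. The precursor entry may therefore hold reads of that arm, of the loop or of other parts of the hairpin. It cannot hold reads of the whole hairpin of 89 bases, which is longer than the length limits of the reads. The hairpin is shown from RefSeq (GRCm38.p6, plus strand), with the 5p and the 3p arm in capitals.
mmu-mir-192: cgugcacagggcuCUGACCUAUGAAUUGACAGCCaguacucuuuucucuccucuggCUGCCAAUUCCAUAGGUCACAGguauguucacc

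**Figure D4:**
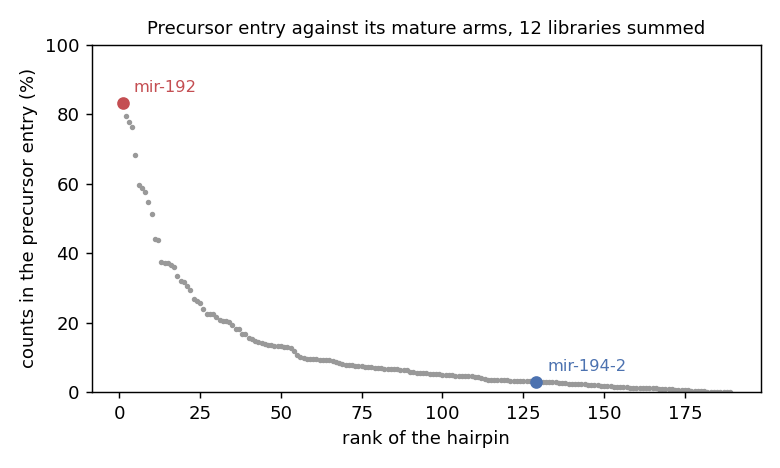
Share of counts in the precursor entry (percent of precursor and mature arm counts, 12 libraries summed) for the 189 hairpins compared, ranked from the highest. mir-192 is at rank 1 with 83.2% and mir-194-2 at rank 129 with 3.04%.

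The other entries of the chromosome 19 locus were counted mainly at E11.5. mir-194-2, the precursor, had 0 counts in the 3 E8.5 libraries. It had 3, 1 and 0 counts in the E9.5 libraries, 0, 0 and 2 in those of E10.5, and 21, 9 and 45 in those of E11.5. It was over 3 counts in the 3 E11.5 libraries and in no other. The shallow E9.5 libraries could not show a lower level, since 3 counts there were 32.2 to 76.3 CPM. In CPM mir-194-2 was at 49.0 in E9.5 replicate 1 and at 8.28 in E11.5 replicate 2. Its E11.5 mean of 37.0 ± 25.0 CPM was 6.38-fold the mean level of 3 counts in the E8.5 libraries. That ratio of means leaves out the spread between libraries, so it is not a lower bound. E11.5 replicate 2, at 8.28 CPM, was close to the highest E8.5 level of 3 counts, 7.80 CPM. The libraries did not overlap, but the comparison did not pass the edgeR test (adjusted p = 0.0981). The fitted log2 difference was 6.90 (SE 2.64, confidence interval 1.43 to 12.4). miR-194-2-3p, which did not pass the filter, had 11, 0 and 103 counts at E11.5 and 1 count in 1 of the 9 other libraries (E9.5 replicate 1).

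miR-215-5p and mir-194-1, the entries of the chromosome 1 locus, were almost absent. miR-215-5p had 83 counts (100.4 CPM) in E11.5 replicate 3, 1 count in E8.5 replicate 2 and in E10.5 replicate 2, and 0 in the other libraries. The 83 counts were 0.996 of the second count level of that library. mir-194-1 had 1 count, in E11.5 replicate 2. Summed over the entries that belong to 1 locus, chromosome 19 (mir-192, miR-192-5p, mir-194-2 and miR-194-2-3p) held 1831 counts and chromosome 1 held 86, beside the 2469 counts of miR-194-5p that either locus can give. Of the chromosome 1 counts 84 came from E11.5. Neither the 3p arms of miR-215 and miR-194-1 nor the precursor mir-215 had a row.

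The seed shared by miR-192-5p and miR-215-5p was represented by both arms in different libraries of E11.5. Replicates 1 and 2 held 118 and 104 counts of miR-192-5p and no miR-215-5p, and replicate 3 held 1 count of miR-192-5p and 83 of miR-215-5p. The sum for the seed was 118, 104 and 84 counts at E11.5. In the E8.5 libraries it was 16, 1 and 0, in those of E9.5 it was 0, 2 and 0, and in those of E10.5 it was 33, 1 and 0. These counts come from libraries of unequal depth. Scaled to the library total alone (ppm, without TMM factors), the sum was 282, 94.3 and 99.9 at E11.5. It was 30.8, 2.59 and 0 ppm at E8.5, 0, 25.0 and 0 at E9.5, and 123, 7.49 and 0 at E10.5. On that scale E10.5 replicate 1 lay above E11.5 replicates 2 and 3. The sum was not tested, since its parts were chosen with their values known.

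A ratio inside a library does not depend on how libraries are scaled, so mir-192 was set against miR-194-5p as log2((mir-192 + 1)/(miR-194-5p + 1)) in counts. The added 1 pulls the value toward 0 where counts are low, so it still depends on depth there. The E8.5 libraries gave -0.70, 0.87 and 5.46, and the E9.5 libraries -5.95, -0.42 and -4.11. Those of E10.5 gave -0.09, -3.58 and 1.16, and those of E11.5 gave -0.83, -1.46 and -1.42. The means from E8.5 to E11.5 were 1.88 ± 3.20, -3.49 ± 2.82, -0.84 ± 2.46 and -1.24 ± 0.35 (SD, n = 3). The E11.5 values were negative and close to each other, while E8.5 and E10.5 held both signs. The 3 E9.5 values were also negative, but mir-192 had 2, 2 and 3 counts there, which is not distinguishable from 0. In E9.5 replicate 2 the sign rests on 2 against 3 counts. Stage took up 47.2% of the variance, which did not pass a one-sided exact permutation test over all 369600 assignments of the 12 libraries to stages (p = 0.128). Without E9.5 replicate 2, where both entries were at 3 counts or fewer, the exact permutation p was 0.0419, and it was 0.0739 to 0.319 when each of the other 11 libraries was left out.

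**Figure D5:**
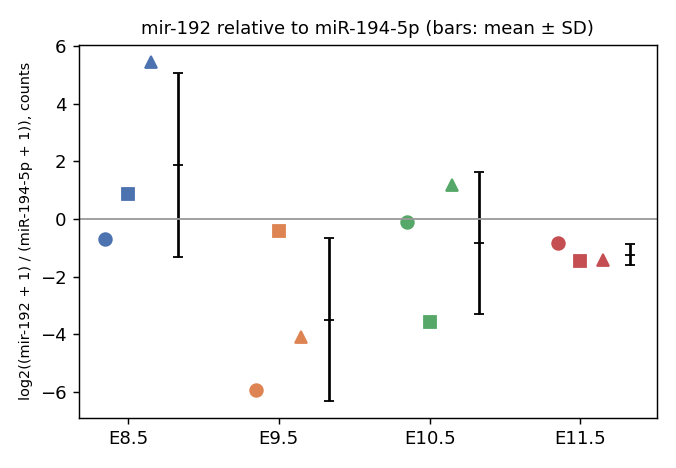
log2 ratio of mir-192 to miR-194-5p counts (1 added to each) in each library, with the mean ± SD of the 3 libraries of each stage (circle, square and triangle for replicates 1 to 3, zero line for equal counts). The stage means ran from -3.49 at E9.5 to 1.88 at E8.5, and the E11.5 libraries lay between -1.46 and -0.83. In the E9.5 libraries mir-192 was at 3 counts or fewer.

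Over the 12 libraries the log2 CPM of miR-194-5p and mir-192 had Pearson's r = 0.05 and Spearman's rho = 0.12, a description of libraries that share stage and depth. Among 360 other entries with at least 10 counts in at least 6 libraries, the 5 most like miR-194-5p were miR-27b-3p (r = 0.878), mir-7b (0.841), miR-205-5p (0.828), let-7f-5p (0.805) and miR-200c-3p (0.774). The 5 most like mir-192 were mir-411 (r = 0.893), miR-101b-3p (0.866), miR-99b-3p (0.804), miR-3102-3p.2-3p (0.803) and miR-106b-3p (0.798). The 2 sets had no entry in common. Each was picked as the highest of 360 over the same 12 libraries, so the size of r is set in part by that choice. miR-27b-3p had its highest mean at E9.5 (7498 ± 6156 CPM) and its lowest at E8.5 (1651 ± 851), the same order of those stages as miR-194-5p. miR-101b-3p had its lowest mean at E9.5 (21.1 ± 4.56 CPM) and its highest at E10.5 (472 ± 542), as mir-192 did. Likeness in stage order is set in part by the same choice. Highest at E9.5 were also mir-7b and let-7f-5p, but not miR-205-5p (E10.5, 1366 CPM) or miR-200c-3p (E11.5, 14389 CPM). Of the mir-192 set, mir-411 and miR-3102-3p.2-3p were also highest at E10.5, but not miR-99b-3p (E11.5, 329 CPM) or miR-106b-3p (E8.5, 661 CPM).

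Other miRNAs of gut, liver and pancreas were set beside the family. Of the hepatic list, 3 of 6 names had a row and 2 were tested (miR-122-5p and its precursor mir-122), and both rose at E9.5 against E8.5 with a median log2 change of 6.99 against -0.84 over all tested entries. miR-122-5p, which is made in hepatocytes, rose by 6.97 there (SE 0.37, adjusted p = 2.25e-12, edgeR), from 519 ± 69.1 to 65145 ± 26407 CPM, and no library overlapped. At E11.5 it stood at 52454 ± 15519 CPM beside 733 of miR-194-5p. In E9.5 replicates 1 to 3, where miR-194-5p was at 3006, 32.2 and 1730 CPM, miR-122-5p was at 91802, 64638 and 38996 CPM. miR-31-5p, the 1 of 4 intestinal names with a row, was not called in any comparison (edgeR, with 3 at an unadjusted p under 0.05), and stood at 124 ± 123 CPM in the E8.5 libraries, 1776 ± 1689 in those of E9.5, 1364 ± 1017 in those of E10.5 and 948 ± 276 in those of E11.5.

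Of the pancreatic list 6 of 8 names had a row and 5 were tested. At E11.5 against E8.5, 3 rose and 0 fell, with a median log2 change of 1.51 against -0.07 over all tested entries. They were miR-375-3p and miR-7a-5p, both abundant in endocrine cells, and miR-7b-5p. All 5 names of the epithelial miR-200 list were tested, and 3 rose at E11.5 against E8.5 (miR-200b-3p, miR-429-3p and miR-200c-3p), with a median of 1.89. Of the miR-34 list, which responds to p53, 3 of 5 names had a row and 2 were tested, and none was called in any comparison (edgeR, with 0 at an unadjusted p under 0.05). The rows were miR-34b-3p, miR-34c-3p and miR-34c-5p, while miR-34a-5p had none. The summed level of the list was 177 to 665 CPM in the E8.5 libraries and 1.21 to 73.6 CPM in those of E11.5, where miR-194-5p was at 475 to 990. The part of p53 in these levels was not tested.

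Markers of other cells were followed over the same stages. All 5 mesenchymal markers were tested. At E9.5 against E8.5 the list had a median log2 change of 0.89 with 0 higher and 1 lower call, miR-143-3p, which fell by 2.59 (adjusted p = 0.00208, edgeR). At E10.5 against E9.5 miR-143-3p rose by 2.02 (adjusted p = 0.0237, edgeR). At E11.5 against E8.5 the median was 0.13 and miR-199a-5p (adjusted p = 0.0181) and miR-214-3p (0.0250) rose, and miR-199a-5p also rose at E10.5 against E8.5 (0.0219, edgeR). The summed level of the list, most of it miR-143-3p in the E8.5 libraries, was 6754 to 13250 CPM there and 1418 to 5011 CPM in those of E9.5. Of the 3 muscle markers 1 was tested, miR-1a-3p, which fell by 4.36 at E11.5 against E8.5 (adjusted p = 0.00115, edgeR). The summed level, most of it miR-1a-3p, was 6324 to 26705 CPM in the E8.5 libraries and 282 to 1721 CPM in those of E11.5. The untested muscle markers differed in direction. miR-133a-3p had 77 counts over the E8.5 libraries and 0 over those of E11.5. miR-206-3p had 14 counts over the E8.5 libraries (at most 17.4 CPM) and 314 over those of E11.5 (0 to 252 CPM). The endothelial markers, 2 of 2 tested, summed to 1832 to 2295 CPM in the E8.5 libraries and 32.7 to 408 CPM in those of E9.5. The erythroid markers (3 of 5 with a row) summed to 462 to 1315 CPM in the E8.5 libraries and 635 to 1321 CPM in those of E11.5. Of these, miR-451a, the defining one, had 1 count over the E8.5 libraries and 2 over those of E9.5. It had 20 over those of E10.5 and 2 over those of E11.5. The leukocyte markers (3 of 5 with a row) summed to 116 to 424 CPM in the E8.5 libraries, 10.7 to 2696 in those of E9.5, 68.9 to 384 in those of E10.5 and 11.47 to 208 in those of E11.5. miR-223-3p led them at E9.5 (208 counts in all), and miR-155-5p led them at the other stages. The neural markers (3 of 3 with a row) lay between 0 and 510 CPM over all libraries. None of the endothelial, erythroid, leukocyte or neural entries tested was called in any comparison by edgeR, with 3, 0, 0 and 3 at an unadjusted p under 0.05 over the 6 comparisons. The part of any of these cells in the levels of miR-194-5p and mir-192 was not tested.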

How the data were processed

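The authors deposited 1 table of raw counts per miRNA entry, with 1 column per library and no normalisation. Per the study's methods, NEXTflex v3 reads were trimmed of the adapter and of 4 random bases and filtered by length. They were aligned to mm10 with STAR and counted with COMPSRA against mature and precursor annotation. The length limits, 17 to 35 bases and to 36 bases in 2 libraries, were read from the column names. The random bases were not used to count molecules, so floors (3 counts) cover counting error only. Totals were 53996 to 1103383 counts. All 12 libraries entered 1 fit with stage as factor in edgeR 4.0.16 (R 4.3.3): TMM factors (0.733 to 1.17), filterByExpr (minimum count 10, minimum total 15, 571 entries), quasi-likelihood test, Benjamini-Hochberg adjustment over all tested entries, and a call at adjusted p under 0.05. The SE was the log2 fold change divided by the square root of F.

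The members were named by their row names, likeness by the 5 highest Pearson r of log2 CPM (prior count 2), and list entries by being called or leading their list. Members and lists were chosen with earlier results of these data known. The second count level was the peak of a density (bandwidth 0.12 on log10 counts) between 10 and 1000 counts. Replicates of a stage differed by 41.5 to 137 chi-square units per degree of freedom, so each counted as 1. The fit and the permutation test were tested on simulated data. RLE and unscaled sizes, filters, DESeq2 1.42.0, limma 3.58.1 voom, other subsets, a replicate block and leaving out each library were tried as alternatives. Sequences and RefSeq positions are GRCm38.p6, which is the build mm10. Columns of other samples numbered 0.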

Additional observations from a re-analysis of the deposited data

How the results depend on the processing

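Of 511 alternative fits of a tested entry in a comparison, 476 kept the direction and the side of the threshold. The rise of miR-194-5p at E9.5 against E8.5 was called in 5 of 11 alternatives with all libraries. It missed the threshold with library size alone (4.45, adjusted p = 0.0521), limma voom (3.73, 0.219), the libraries of the compared stages alone (5.37, 0.0650), counts under 10 set to 0 (4.34, 0.180), counts divided by the second count level (3.85, 0.108) and the replicate block (4.63, 0.0710). Leaving out 1 library gave 3.80 to 5.55 and 8 of 12 calls. The E11.5 against E8.5 difference of miR-194-5p became a call with no filter (3.66), DESeq2 (3.58), limma voom (4.49), mature entries alone (3.66), the compared stages alone (3.70) and the second count level (3.74), and it ranged from 3.08 to 4.25 without 1 library, 3 of 12 being calls. mir-194-2 at E11.5 against E8.5 was called with limma voom (4.80).

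Signs turned in comparisons that were never called. miR-192-5p at E9.5 against E8.5 turned with RLE (0.47), limma voom (2.24), the replicate block (1.57) and without mir-6236 and mir-6240 (0.22), and ranged from -5.02 to 4.70 without 1 library. With limma voom, miR-192-5p at E10.5 against E9.5 turned (-0.41), as did miR-194-5p at E11.5 against E9.5 (0.75) and mir-192 at E11.5 against E10.5 (0.47, replicate block 0.060). Without 1 library, miR-192-5p ranged from -5.11 to 7.15 at E10.5 against E9.5 and from -4.96 to 7.03 at E10.5 against E8.5, both lowest without E10.5 replicate 1, and mir-192 at E11.5 against E10.5 from -0.94 to 0.43. The exact permutation p of the ratio of mir-192 to miR-194-5p ranged from 0.0419 to 0.319 without 1 library and from 0.114 to 0.164 otherwise. The cause of these changes was not tested.

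Counts of calls over all entries, with all libraries kept, ranged from 17 (limma voom) to 79 (DESeq2) at E9.5 against E8.5 (32 in the fit reported), 1 to 68 at E10.5 against E9.5 (25), 0 (edgeR, counts under 10 set to 0) to 8 at E11.5 against E10.5 (2, with 61 at an unadjusted p under 0.05), 26 to 116 at E10.5 against E8.5 (49), 33 to 147 at E11.5 against E8.5 (66) and 6 to 64 at E11.5 against E9.5 (26). RLE size factors made 44 of 50 calls higher at E9.5 against E8.5 (23 of 32 as reported), 1 of 24 at E10.5 against E9.5 (9 of 25) and 0 of 27 at E11.5 against E9.5 (7 of 26). RLE moved the median of all tested entries by -0.71 (E11.5 against E9.5) to 0.64 (E9.5 against E8.5) on the log2 scale. The replicate numbers pair nothing (1 of 18 correlations of same-numbered deviations was over 0.1). No member passed a filter of 10 counts in every library, and mature entries alone leave out mir-192 and mir-194-2. An alternative also gave no value where the entry failed its filter, had no adjusted p or was at 0 in both stages. Such fits are not among the alternatives counted. Depth limits the E9.5 values most.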
